A study of Mus musculus with 7 samples.

Results

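The perilipins (*Plin1* to *Plin5*) were examined for occupancy by RNA polymerase II (RNAP2) and by the clock factors BMAL1 and REV-ERBα in mouse gastrocnemius muscle. Each member was given a window that held its gene body and 10 kb on either side of every annotated transcription start site (TSS), and all ChIP-seq peaks that touched a window were collected. The 5 genes are 5 of 21938 protein-coding genes annotated by GENCODE M21, and their windows cover 114484 bp of the mm10 (GRCm38) genome. The muscles came from Wild Type male C57BL/6J mice 5 months old, kept under a light:dark cycle on standard chow, and 2 replicates were immunoprecipitated for each factor, with BMAL1 and RNAP2 at ZT 4 (Zeitgeber time, hours after lights on) and REV-ERBα at ZT 8. REV-ERBα was precipitated with a mixture of 2 antibodies, the others with 1. Because factor and time change together between REV-ERBα and the others, they cannot be told apart. For each library a separate list of peaks was available, called by the authors against input DNA, and each peak carries a fold enrichment over the local background and a −log10 p at its summit. The lists hold 87870 and 168821 peaks for RNAP2 replicates 1 and 2, 28881 and 29934 for REV-ERBα, and 34737 and 177669 for BMAL1. The number of reads under a peak is unknown, so the values below have no counting error, and with 2 replicates of each factor no test across animals was made.

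Perilipins are the coat proteins of lipid droplets, where they control the access of lipases to stored triglyceride. Perilipin 1 is the coat of the large droplets of adipocytes and restrains lipolysis until the cell is stimulated, perilipin 2 covers the droplets of most cell types, and perilipin 3 moves between cytosol and new droplets. Perilipin 4 has a long stretch of repeated amphipathic helix that settles on droplets, and perilipin 5 is found in oxidative tissues, where it ties droplets to mitochondria. BMAL1 activates transcription with its partner CLOCK from E-boxes, and REV-ERBα represses it from response elements built on the sequence AGGTCA.

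All 5 genes lie on the minus strand. *Plin1* (ENSMUSG00000030546) spans chr7:79720218-79732903, *Plin2* (ENSMUSG00000028494) chr4:86648386-86670060 and *Plin3* (ENSMUSG00000024197) chr17:56277476-56292873. *Plin4* (ENSMUSG00000002831, chr17:56100591-56109803) and *Plin5* (ENSMUSG00000011305, chr17:56111601-56117596) stand in tandem. The end of *Plin5* is 1797 bp upstream of the *Plin4* TSS, so that their windows share 12506 bp and some peaks belong to both. At its 3′ end *Plin4* overlaps *Hdgfl2* by 17 bp.

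*Plin4* had the strongest and widest RNAP2 and REV-ERBα peaks of the family. RNAP2 peaks lay over its promoter, coding exons in its middle and its 3′ end in both replicates, and REV-ERBα peaks lay over the same 3 places in both replicates. *Plin5*, its neighbour, had a BMAL1 region in both replicates over an exon and parts of the introns beside it but no REV-ERBα peak over its body. *Plin1*, *Plin2* and *Plin3* each had an RNAP2 promoter peak in replicate 1 that replicate 2 did not list, and no REV-ERBα or BMAL1 region in both replicates.

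Peaks of the 2 replicates that overlapped by at least 1 bp were merged and called a region in both replicates. An RNAP2 region of this kind was found in the windows of 3 of 5 members (*Plin2*, *Plin4* and *Plin5*), against 41.1% of all protein-coding genes. A REV-ERBα region was found for 2 of 5 members (*Plin4* and *Plin5*, background 4.44%). For *Plin5* it is the region over the *Plin4* promoter, 7478 bp or more downstream of the nearer *Plin5* TSS. A BMAL1 region was found for the same 2 members (background 6.81%), and it is a single region that both windows hold. The same 2 members are thus the ones with regions of all 3 factors (background 0.802%), and they are not independent cases. Among the genes with an RNAP2 region in both replicates, 8.5% had a REV-ERBα region. Within 1 kb of a TSS, RNAP2 regions were present for *Plin2* and *Plin4* (background 30.5%), a REV-ERBα region for *Plin4* (background 2%) and a BMAL1 region for none (background 0.843%). At *Plin2* only the edge of the region came within this distance, and its summits lay beyond it, 1059 and 1177 bp downstream of a TSS. Taking the 4 lists of BMAL1 and REV-ERBα together, a site that 3 or more of them share was found at *Plin4* alone (1 of 5, background 1.62%).

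Peaks of single lists are common over all genes and are given here as values only. RNAP2 peaks were listed for 5 of 5 members in each replicate (background 76.9% and 86.5%). REV-ERBα peaks were listed for 3 members in replicate 1 and 3 in replicate 2 (background 38.7% and 40.1%), and BMAL1 peaks for 3 and 4 (background 38.2% and 84.4%). The union of the windows held 13 and 13 RNAP2 peaks, which is 3.52 and 1.83 times the density of the whole genome. It held 4 and 4 REV-ERBα peaks, 3.30 and 3.18 times the genome's density, and 2 and 8 BMAL1 peaks, 1.37 and 1.07 times. These ratios set windows around genes against the whole genome, not against windows of other genes. Of the 4 REV-ERBα peaks in each replicate, 3 were in the *Plin4* window.

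**Figure D1:**
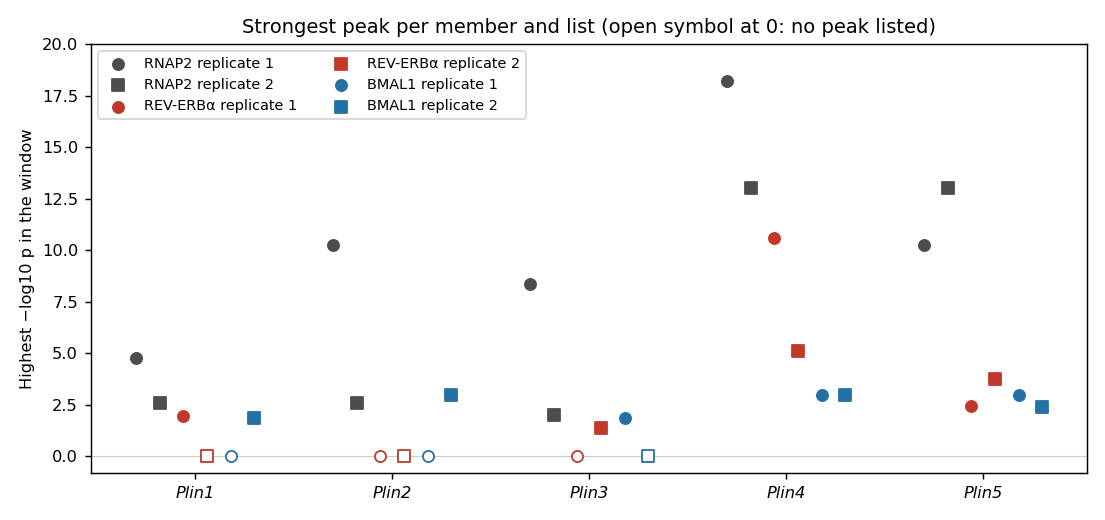
Highest −log10 p (y axis) of any peak in the window of each perilipin gene (x axis), for the 6 lists; circles are replicate 1, squares replicate 2, and open symbols at 0 mark lists with no peak. *Plin4* has the highest RNAP2 value, 18.2, and the highest REV-ERBα values, 10.6 and 5.11; the RNAP2 and REV-ERBα values of *Plin5* come from peaks over the *Plin4* promoter.

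At *Plin4*, RNAP2 lay in 3 regions in both replicates. A region that runs from the 3′ part of the gene into *Hdgfl2* had a −log10 p of 18.2 and 9.04 in replicates 1 and 2, with summits 8881 and 8631 bp downstream of the *Plin4* TSS, in the last exon. Another region over coding exons (chr17:56102057-56105459) had a −log10 p of 16.9 and 6.78, and its summits lay 10 bp apart. The promoter region (chr17:56108352-56110151) reached 10.2 and 13.0 in −log10 p, at 5.66- and 6.80-fold enrichment. In replicate 1 the promoter held a pair of peaks, with summits 8 and 715 bp downstream of the TSS, and in replicate 2 a single peak with its summit at 22 bp. All 3 regions had a −log10 q of at least 3.02 in each replicate. Both replicates thus had RNAP2 peaks at the start, in the middle and at the end of the gene, and their order of strength was not the same: replicate 1 was highest at the 3′ end and replicate 2 at the promoter.

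These peaks were wide. They covered 48.6% of the *Plin4* gene body in replicate 1 and 68.3% in replicate 2, and 46.9% lay under peaks of both. The last value is above that of 99.8% of protein-coding genes, and *Plin4* ranked 36 among 21938. Of 10 myofiber markers, 5 had a larger share. The genes ranked above *Plin4* included *Acta1* (skeletal α-actin) and *Tnni2* (fast troponin I), which were wholly covered, and *Ckm* (muscle creatine kinase) at 71.8%, but also short predicted and histone genes such as *Gm3625* (102 bp) and *Hist1h1c* (1560 bp). *Fitm1*, a muscle gene of lipid droplet formation, was covered to 55.1%. The other perilipins were far below. *Plin1* was covered to 3.99% and 0% in replicates 1 and 2, *Plin2* to 2.78% and 3.73%, *Plin3* to 3.77% and 0%, and *Plin5* to 4.40% and 11.3%. The bases under peaks of both replicates were 0.434% of *Plin2* and 0% of *Plin1*, *Plin3* and *Plin5*, and the median of all genes was 0% too.

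**Figure D2:**
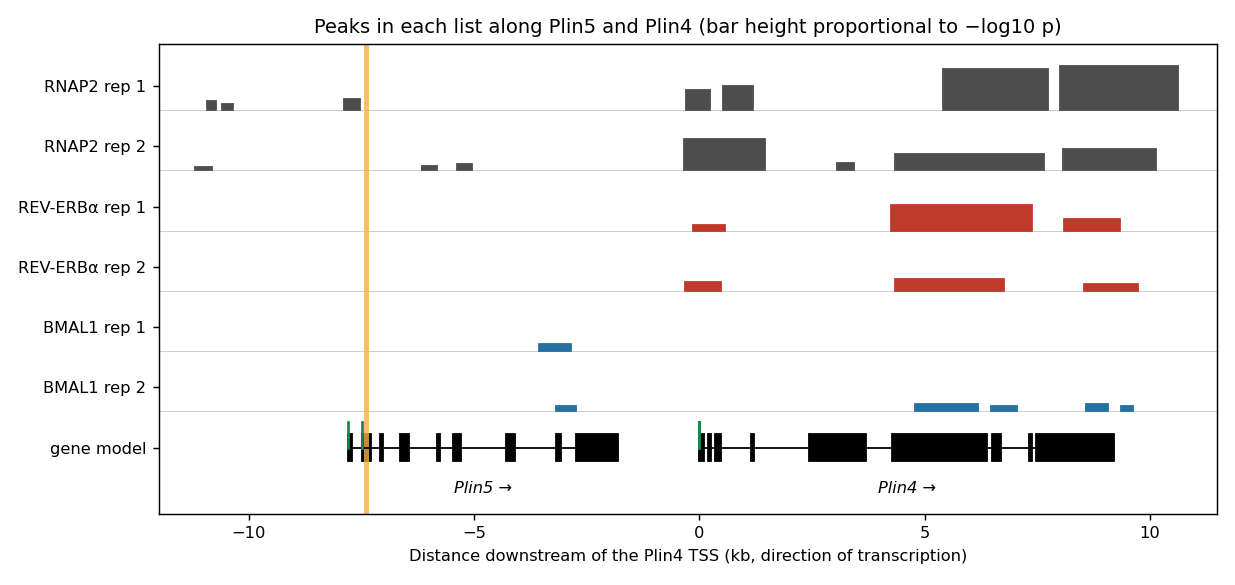
Peaks of the 6 lists along *Plin5* and *Plin4*, by distance downstream of the *Plin4* TSS in kb; bar height is proportional to −log10 p, black boxes are exons, green ticks are TSSs and the orange line is the ChIP-qPCR amplicon of *Plin5*. RNAP2 and REV-ERBα bars stack over the promoter, the longest coding exon and the 3′ end of *Plin4*. The BMAL1 peaks of both replicates meet over an exon of *Plin5* and the introns beside it.

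REV-ERBα followed the same layout at *Plin4*. The strongest region (chr17:56102424-56105538) lay over the longest coding exon (chr17:56103417-56105522) and did not reach the next longest (chr17:56106096-56107374), with 10.6 and 5.11 in −log10 p and 4.92- and 3.02-fold enrichment in replicates 1 and 2. These peaks were above 99.5% and 98.4% of their lists in −log10 p, and with widths of 3115 and 2418 bp they were wider than 99.9% and 99.8% of them. The region at the 3′ end (chr17:56100065-56101707) had a −log10 p of 4.76 and 2.72. The promoter region (chr17:56109238-56110127) had a −log10 p of 2.44 and 3.75, with summits 229 bp downstream and 17 bp upstream of the TSS. A −log10 p of 3 in both replicates was reached by the coding exon region alone, and a −log10 q of 1.3 by none, since replicate 2 of that region had a −log10 q of 0.850. Over the whole lists, 1.12% and 1.41% of REV-ERBα peaks reached a −log10 q of 1.3 in replicates 1 and 2.

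BMAL1 differed between its replicates at *Plin4*. Replicate 1 listed no peak over the gene body, whereas replicate 2 listed 3, with a −log10 p between 2.27 and 2.98 and a −log10 q of 0, and another just past the 3′ end of the gene (−log10 p 2.40). Peaks of BMAL1 replicate 2 joined the REV-ERBα regions at the 3′ end and over the coding exons, which made these the 2 sites with peaks in 3 of the 4 BMAL1 and REV-ERBα lists. Without BMAL1 replicate 2 no member had such a site.

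Nearly all REV-ERBα occupancy of *Plin4* lay under RNAP2. Of the *Plin4* bases under REV-ERBα peaks, 98.4% in replicate 1 and 100% in replicate 2 were also under an RNAP2 peak of either replicate. So were 100% of the bases under BMAL1 peaks of replicate 2. RNAP2 peaks of replicates 1 and 2 covered 48.6% and 68.3% of all *Plin4* bases, so a large overlap would be met by most placements. Counted as regions in both replicates, 3 of 3 REV-ERBα regions at *Plin4* overlapped an RNAP2 region, against 32.9% over the whole genome. The share of genes with REV-ERBα over their body was larger where RNAP2 covered more of it. It was 1.34% of the 14539 genes with no base under RNAP2 peaks of both replicates, 6.06% of the 6943 genes above 0% and below 10%, 19.1% of the 409 genes from 10% to below 40%, and 51.1% (24 of 47) of the genes with 40% or more, *Plin4* among them. For BMAL1 the shares were 3.28%, 9.81%, 5.62% and 25.5% (12 of 47). Any overlap with the body counted, and the median gene length in the same order of bins was 12955, 31449, 2959 and 1560 bp. *Plin4* is 9213 bp long. The edges of these bins were set after the value of *Plin4* was known, and genes are not replicates. The part of dense RNAP2 occupancy in the REV-ERBα peaks of *Plin4* was not tested.

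**Figure D3:**
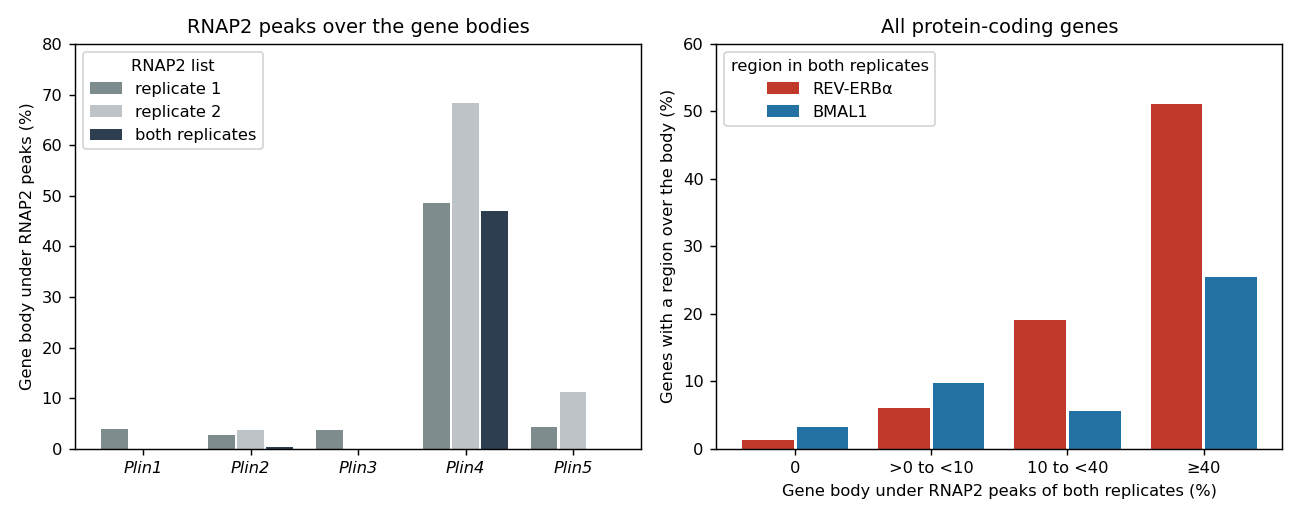
Left, share of each perilipin gene body (y axis, %) under RNAP2 peaks of replicate 1, replicate 2 and both; right, share of all protein-coding genes (y axis, %) with a REV-ERBα or BMAL1 region in both replicates over the gene body, by the share of the body under RNAP2 peaks of both replicates (x axis, %). *Plin4* reaches 46.9% in both replicates, in the bin where 51.1% of genes carry REV-ERBα.

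The tandem repeat of perilipin 4 spans its longest and next longest coding exons, and the strongest REV-ERBα region lies over the 3′ side of it. Each base of *Plin4* and *Plin5* was compared with the base 99 positions further along the chromosome, a spacing of 33 codons. Over 3100 bp (chr17:56104091-56107190) every 100-base bin matched at 60% or more, with a mean of 76.1% and a highest value of 97%, whereas the other bins had a median of 25%. Over the pair of coding exons and the intron between them, the match at a spacing of 99 bases (68.2%) was second to that at 297 bases (71.4%), which is 3 units. To show how alike the copies are, 3 units in a row around the summit of REV-ERBα replicate 1 are printed from mm10, on the strand of the gene, with capitals at the bases that differ from the middle unit.
Unit 1 (chr17:56104522-56104620): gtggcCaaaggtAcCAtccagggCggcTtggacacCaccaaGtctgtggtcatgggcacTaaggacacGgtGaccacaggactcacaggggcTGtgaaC
Unit 2 (chr17:56104423-56104521): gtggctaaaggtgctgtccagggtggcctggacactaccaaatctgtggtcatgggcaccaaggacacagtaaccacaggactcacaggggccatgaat
Unit 3 (chr17:56104324-56104422): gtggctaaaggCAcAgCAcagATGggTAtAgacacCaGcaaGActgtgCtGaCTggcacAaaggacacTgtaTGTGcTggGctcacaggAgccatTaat
Unit 1 differs from unit 2 at 14 of 99 bases and unit 3 at 29. The peaks covered the repeat unevenly. REV-ERBα peaks lay over 46.7% and 43.9% of it in replicates 1 and 2, RNAP2 peaks over 10.1% and 56.3%, and BMAL1 peaks over 0% and 29.8%. All of the REV-ERBα and BMAL1 coverage was in the 3′ side of the repeat, and on its 5′ side RNAP2 replicate 2 alone had a peak (24.2% of that side). Reads that mapped to several places had been removed by the authors before peaks were called, and the part of the repeat in the shape of the peaks was not tested. The summit of REV-ERBα replicate 1 was in the repeat, and that of replicate 2 lay 1031 bp away, outside it.

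**Figure D4:**
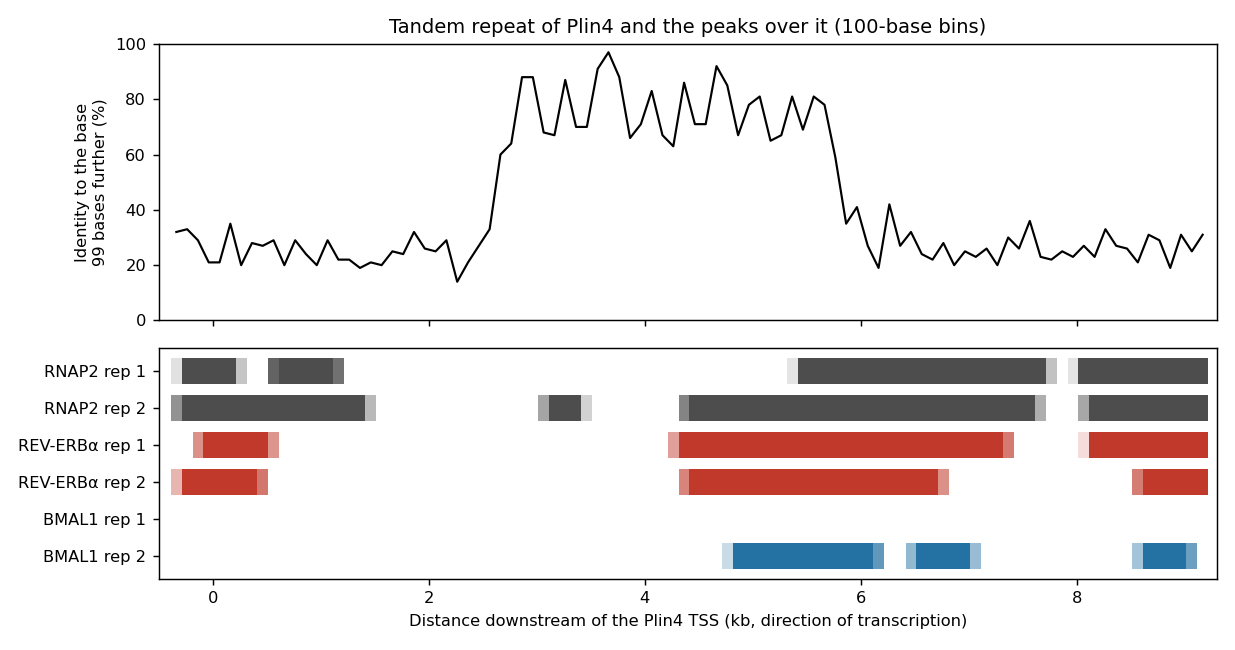
Top, match of each base to the base 99 positions further (y axis, %), in 100-base bins along *Plin4*; bottom, bins under peaks of each list, with paler bins covered in part; x axis, distance downstream of the *Plin4* TSS in kb. The REV-ERBα peaks begin inside the repeat and run past its 3′ end.

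Next, the sequence just before the *Plin4* TSS was read, because the summit of REV-ERBα replicate 2 lies 17 bp upstream of the TSS. The 200 bases before the TSS, on the strand of the gene, hold neither CACGTG nor the myogenic form CAGCTG and neither receptor motif (AGGTCA or its variant GGGTCA) on either strand. Capitals mark the E-box of the general form CANNTG.
Plin4 upstream (chr17:56109804-56110003): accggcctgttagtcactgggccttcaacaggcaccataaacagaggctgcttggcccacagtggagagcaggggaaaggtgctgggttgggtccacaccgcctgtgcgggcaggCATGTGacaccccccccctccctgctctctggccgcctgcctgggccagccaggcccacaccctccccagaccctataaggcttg
In RefSeq promoters of GRCm38 (250 bases before to 50 after a start), AGGTCA is present in 16.3%, GGGTCA in 13.7%, CACGTG in 7.15% and CAGCTG in 16.3% of 32851 entries. Outside the 200 bases, CAGCTG does lie under the promoter peaks, at chr17:56110110-56110115 in replicate 2 of RNAP2 and REV-ERBα. It also starts at chr17:56108749, 56108841, 56108966 and 56109055, downstream of the TSS and under RNAP2 peaks of both replicates. Within 100 bp of the 6 REV-ERBα summits at *Plin4*, AGGTCA was present at 1, beneath replicate 2 over the coding exons, and neither the RORE nor a DR2 with up to 2 mismatches was found on either strand. Beyond these windows, a DR2 with 2 mismatches lies at chr17:56101091-56101104 at the 3′ end of *Plin4*, inside the REV-ERBα and RNAP2 peaks of both replicates and the BMAL1 peak of replicate 2. A DR2 of that kind was found near the summit of 2.06% of REV-ERBα regions in both replicates. Over all REV-ERBα regions in both replicates, AGGTCA was present in 13.1% and the RORE in 0.158%. No match says only that these letters are absent from these windows.

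At *Plin5* the BMAL1 peaks of both replicates met near the 3′ end of the gene (chr17:56112545-56113361), over a whole exon and parts of the introns on either side. Their summits lay 1 bp apart in the intron downstream of this exon. They were 4518 and 4517 bp downstream of the nearer *Plin5* TSS and 2977 and 2978 bp upstream of the *Plin4* TSS, the nearest one. The peaks were weak, at 2.44- and 2.30-fold enrichment, with a −log10 p of 2.98 and 2.40 and a −log10 q of 0 in both. The lower of these −log10 p values was nevertheless above that of 71.8% of BMAL1 regions in both replicates. The region was lost at a −log10 p of 3, and also when the longer BMAL1 list was shortened to the length of the other. A −log10 q of 1.3 was reached by only 0.265% and 0.0203% of all BMAL1 peaks in replicates 1 and 2. The intron sequence around the summits is shown on the strand of the gene, because it carries several nuclear receptor motifs; capitals mark AGGTCA and E-boxes of the general form CANNTG.
BMAL1 region in Plin5 (chr17:56112680-56112868): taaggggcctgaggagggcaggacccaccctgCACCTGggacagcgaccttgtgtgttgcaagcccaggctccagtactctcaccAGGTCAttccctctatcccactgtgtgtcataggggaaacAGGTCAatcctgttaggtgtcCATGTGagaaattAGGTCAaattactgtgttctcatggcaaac
No CACGTG is present. The general E-box occurs 2 times, and a match of that form was found near the summit of 65.2% of BMAL1 regions in both replicates. AGGTCA occurs 3 times on the strand of the gene, and the copy farthest upstream covers the summits. At least 3 copies were found at 4 of 2742 BMAL1 regions (0.146%), a count made after this sequence had been seen. The copy farthest downstream is part of a RORE, which 0.511% of BMAL1 regions hold. No REV-ERBα peak of either replicate overlapped the BMAL1 region, and the closest, over the *Plin4* promoter, lay 2599 and 2418 bp away in replicates 1 and 2.

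RNAP2 at *Plin5* was weaker and not shared between replicates. Replicate 1 listed a peak at the promoter (chr17:56117333-56117689) with a −log10 p of 4.79 at 3.75-fold enrichment, with its summit between the annotated TSSs of the gene. Replicate 2 listed none there, and had 2 peaks inside the gene instead, 2296 and 1509 bp downstream of a TSS, with a −log10 p of 2.60 and 1.99. The RNAP2 regions that fall in the *Plin5* window are the *Plin4* promoter and a region 3046 and 3098 bp upstream of *Plin5* in a coding exon of *Lrg1*, a secreted glycoprotein gene (−log10 p 3.88 and 1.59). Over the *Plin5* body no base was under RNAP2 peaks of both replicates.

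The study lists a ChIP-qPCR primer pair for *Plin5*, and it was located by exact match, 1 site for each primer in the genome. The primers are printed 5′ to 3′, with CACGTG in capitals.
Plin5 forward (chr17:56117128-56117146, plus strand): tccagtagggacagacccg
Plin5 reverse (chr17:56117220-56117239, minus strand): ctcCACGTGcaatctttgcc
The amplicon of 112 bp begins 59 bp downstream of the downstream *Plin5* TSS, and the E-box of the reverse primer lies inside it. By ChIP-qPCR the paper reports REV-ERBα binding near *Plin5* in control muscle, strongly reduced in muscle without BMAL1. Expression of *Plin5* was, in the paper, higher in muscle without BMAL1 and fell when REV-ERBα was introduced there. The paper also notes a REV-ERBα peak near a known nuclear receptor element in the *Plin5* promoter. In the lists used here no peak of any of the 6 overlapped the amplicon, and the reason for this difference was not tested. The nearest REV-ERBα peaks were 7182 and 7001 bp away in replicates 1 and 2, the nearest BMAL1 peaks 3767 and 4134 bp, and the nearest RNAP2 peaks 94 and 1177 bp. Between the 3′ end of *Plin4* and 2000 bp upstream of *Plin5*, CACGTG occurs at 2 places, here and 891 bp downstream of a *Plin5* TSS, and neither was under a peak. The RefSeq promoter of the downstream TSS has 1 copy of AGGTCA, 1 of GGGTCA and 1 of CAGCTG, and that of the upstream RefSeq start 1 copy of AGGTCA.

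At *Plin1*, *Plin2* and *Plin3*, RNAP2 was listed at a TSS in replicate 1. For *Plin2*, the coat protein of most cells, the peak (chr4:86669862-86670257) had a −log10 p of 10.2 at 5.66-fold enrichment, with its summit 36 bp from a TSS. For *Plin3* the peak (chr17:56290302-56290881) had a −log10 p of 8.34 at 5.35-fold enrichment, 24 bp upstream of the downstream TSS. For *Plin1* (chr7:79732579-79732882) the −log10 p was 4.79 and the fold enrichment 3.75, 49 bp from a TSS. Replicate 2 had no peak over any of these 3. Of the 3652 replicate 1 promoter peaks whose −log10 p reached 8, 90.1% overlapped a peak of replicate 2, and those of *Plin2* and *Plin3* did not. The limit of 8 was set with the values of these 2 genes known. Much stronger peaks are counted too, so 90.1% is not the share for peaks of similar strength. Counted within 1 kb of any TSS, *Plin1*, *Plin3* and *Plin5* had RNAP2 in replicate 1 only, as had 12.9% of genes, and none had it in replicate 2 only (11.8% of genes).

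The RNAP2 region of *Plin2* in both replicates (chr4:86668226-86668612) was weak and lay over a coding exon, with a −log10 p of 2.45 and 2.42 and summits 1059 and 1177 bp downstream of a TSS. Replicate 2 also listed a peak in an intron, 314 bp upstream of another annotated TSS (chr4:86665962-86666252, −log10 p 2.26), so that both lists had RNAP2 within 1 kb of some TSS of *Plin2*. The replicate peaks of the region shared 94 bp and it was lost when the overlap had to reach 50% of the shorter peak, at a −log10 p of 3 and at a −log10 q of 1.3.

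Clock factor peaks at these 3 genes came from single lists. REV-ERBα was listed 2276 bp upstream of *Plin1* in replicate 1 (−log10 p 1.95) and 780 bp upstream of the downstream *Plin3* TSS in replicate 2 (−log10 p 1.40), and at *Plin2* in neither. The latter value is above only 0.438% of its list. BMAL1 replicate 1 had a peak 52 bp downstream of a *Plin3* TSS (−log10 p 1.85), and replicate 2 had peaks in the *Plin2* window, 3132 bp downstream and 6188 bp upstream of a TSS (−log10 p 2.40 and 2.98). In the *Plin1* window its peak lay nearer to the TSS of *Kif7* (−log10 p 1.87). None of these peaks overlapped a peak of the other replicate. The *Plin2* promoter in RefSeq holds 1 CACGTG and 1 AGGTCA, and no BMAL1 or REV-ERBα peak was listed over it.

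**Figure D5:**
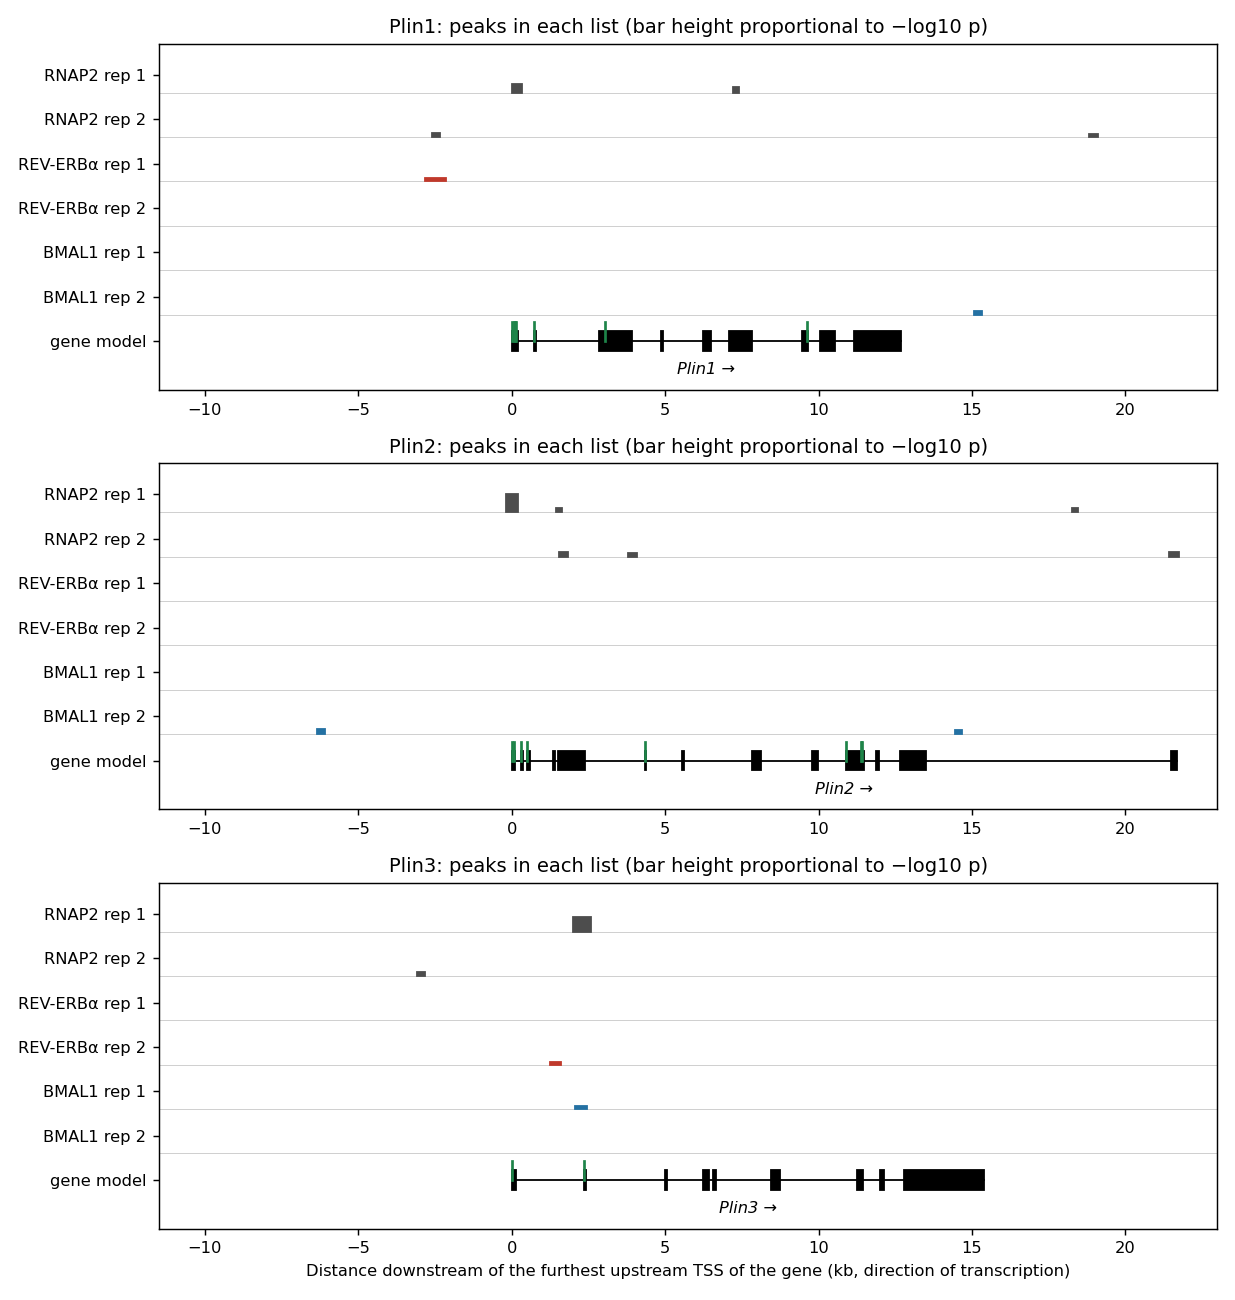
Peaks of the 6 lists around *Plin1*, *Plin2* and *Plin3*, by distance downstream of the furthest upstream TSS in kb; bar height is proportional to −log10 p, black boxes are exons and green ticks are TSSs. The tallest bars are the RNAP2 replicate 1 peaks at the promoters (4.79, 10.2 and 8.34), and no replicate 2 bar stands over them.

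The promoters of the family had a GC content above the median of 52.7% over all RefSeq promoters, though at *Plin1* by little. It ranged from 55.7% at *Plin1*, above 58.6% of promoters, to 69.3% at the downstream TSS of *Plin5*, above 89.5% of them (65% at *Plin4*). The ratio of observed to expected CpG was 0.0862 at *Plin1*, 0.221 at *Plin4*, 0.344 at *Plin3* and 0.363 at *Plin2*, below the median of 0.384, and 0.481 and 0.587 at the downstream and upstream RefSeq starts of *Plin5*. TATAAA was not found in the 40 bases before any of the 6 starts, and is found at 2.31% of all.

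Gastrocnemius is a mixed tissue, and in a whole muscle the share of nuclei that carry a factor and the amount per nucleus cannot be told apart. RNAP2 regions within 1 kb of a TSS were present for 10 of 10 myofiber markers, 2 of 10 adipocyte markers (*Fabp4* and *Car3*), 0 of 6 endothelial, 1 of 6 immune, 2 of 6 fibroblast and 0 of 6 liver markers. The background was 30.5%, so the counts outside the myofiber list are near or below the share of all genes. The adipocyte genes *Adipoq*, *Lep* and *Cidec* had none. Whether the regions at *Fabp4* and *Car3*, or the *Plin1* peak, come from fat cells was not tested. Of the myofiber markers, 9 of 10 also had a REV-ERBα region and 9 of 10 a BMAL1 region in the window (background 4.44% and 6.81%). REV-ERBα regions were found for 0 of 10 adipocyte, 0 of 6 endothelial, 1 of 6 immune (*Cd68*), 0 of 6 fibroblast and 1 of 6 liver markers (*Ttr*). Outside the myofiber list, a BMAL1 region was found for 1 endothelial marker. At *Ttr* the highest −log10 p of REV-ERBα was 21.7 and 30.8 in replicates 1 and 2, without an RNAP2 peak in either list. BMAL1 replicate 1 listed a peak in the *Ttr* window too (−log10 p 12.2), and BMAL1 replicate 2 listed none. Of 11 clock genes, 11 had a site that 3 or more of the 4 clock factor lists share (background 1.62%).

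Among 20 other lipid droplet genes (19 matched), which include lipases, their regulators and droplet-forming proteins, 13 had an RNAP2 region in both replicates in the window (background 41.1%) and 12 at the promoter (background 30.5%). *Pnpla2*, the triglyceride lipase that perilipins hold in check, was among them. REV-ERBα was present in both replicates at 1 of 19 (background 4.44%), *Fitm1*, 51 bp upstream of its TSS (−log10 p 3.17 and 3.76). BMAL1 was present at 1 of 19 (background 6.81%), *Mgll*, the monoglyceride lipase, inside the gene body and 38150 bp upstream of its nearest TSS (−log10 p 3.02 and 2.98). These REV-ERBα and BMAL1 counts are near the background. None had a site in 3 of the 4 BMAL1 and REV-ERBα lists.

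Finally, the genes most like each member were sought by the highest fold enrichment (log2) in the window in each of the 6 lists, among 21924 genes whose windows do not touch those of the family. For *Plin4* these were *Ankrd23* (a muscle ankyrin repeat protein), *Gm42417* and *Cnnm3*, at Euclidean distances of 0.461, 0.461 and 0.465. They are neighbours that share the same peaks and count as 1 locus. For *Plin5*, whose highest values are those of the *Plin4* promoter, they were *Stim2*, *Aamdc* and *Dhx9* (0.319, 0.376 and 0.378). For *Plin1* they were *Stard5*, *Tnfaip6* and *Fkbp7* (0.0666, 0.0687 and 0.104), and for *Plin3* *Eif3f*, *Zfp383* and *Tas1r1* (0.426, 0.484 and 0.583). *Plin2* had peaks in 3 of the 6 lists, fewer than the 4 that were required.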

How the data were processed

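ChIP-seq was performed by the authors on gastrocnemius muscle for BMAL1 and RNAP2 at ZT 4 and REV-ERBα at ZT 8, with 2 replicates each. Per the study's methods the authors aligned reads to mm10 with BWA 7.12, removed duplicate and multi-mapping reads, brought replicates of a factor to equal depth and called peaks on each sample against input with MACS2 2.1.1 at a lenient p-value threshold. The deposited lists give for each peak a fold enrichment (a ratio to the local background), a −log10 p, a −log10 q and the summit's offset. The deposited score column was not used, and the input sample was not analysed here. The number of reads behind a peak is unknown.

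Windows were the gene body and 10 kb around every TSS (GENCODE M21, GRCm38). Peaks of both lists that overlapped by at least 1 bp formed a region in both replicates, and shared sites needed peaks in 3 of the 4 BMAL1 and REV-ERBα lists. Members, gene lists and motifs were chosen with earlier results of these data known. The named genes are the 5 members, neighbours whose TSS is nearer to a region, lipid droplet genes with a REV-ERBα or BMAL1 region, and the 3 most alike genes for each member with peaks in at least 4 lists. Genes named for high RNAP2 coverage, the bins of that coverage and the count of 3 or more AGGTCA were chosen after their values were seen. The −log10 p limit of 8 for RNAP2 promoter peaks was set with the *Plin2* and *Plin3* values known. Motifs were searched on both strands (the E-box CACGTG, its general form CANNTG and the myogenic CAGCTG, the receptor motif AGGTCA and its variant GGGTCA, the RORE, DR1 and DR2 with up to 2 mismatches, and, on the strand of the gene only, the TATA box TATAAA; the general E-box includes both others, and the RORE, DR1 and DR2 overlap the receptor motifs). Sequences were read from GRCm38.p6, and promoters from RefSeq (all 5 members matched). Alternatives were stricter −log10 p or q, equal list lengths, a larger overlap, other windows, nearest TSS only and leaving out each replicate. The code (Python 3.11.15, numpy 2.4.6, matplotlib 3.10.9) was tested on simulated lists.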

Additional observations from a re-analysis of the deposited data

How the results depend on the processing

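No paired analysis was possible because replicate numbers link no animals across factors and the counts come from no test. With a −log10 p of at least 3, the RNAP2 regions in the windows went from 5 to 3, REV-ERBα members from 2 to 1 and regions from 3 to 1, BMAL1 members from 2 to 0 and regions from 1 to 0, and members with a shared site from 1 to 0. With a −log10 q of at least 1.3, 3 RNAP2 regions, 0 REV-ERBα members and regions, 0 BMAL1 members and regions, and 0 members with a shared site were left, since fewer peaks enter. In replicates 1 and 2 this limit keeps 12.5% and 2.15% of all RNAP2 peaks and 1.12% and 1.41% of all REV-ERBα peaks. Of all BMAL1 peaks it keeps 0.265% and 0.0203%, so few genes of any kind could keep a region. With equal list lengths, 0 BMAL1 members and 0 BMAL1 regions were left. When a region counted for the nearest TSS only, 2 RNAP2 regions, 1 REV-ERBα member with 1 region, 1 BMAL1 member and 0 members with a shared site remained in the count, because the regions over the coding exons and the 3′ end of *Plin4* are nearer to *Hdgfl2*, 1 RNAP2 region to *Lrg1*, and the regions that *Plin5* shared with *Plin4* to the *Plin4* TSS. With 25 kb in place of 10 kb, 2 members had a shared site. Leaving out a replicate, so that all peaks of the other enter, gave 5 to 5 RNAP2 members and 13 to 13 regions, 3 to 3 REV-ERBα members and 4 to 4 regions, 3 to 4 BMAL1 members and 2 to 8 regions, and 0 to 1 members with a shared site. Each RNAP2 replicate alone covered 0% to 3.99% of the *Plin1* body, 2.78% to 3.73% of *Plin2*, 0% to 3.77% of *Plin3*, 48.6% to 68.3% of *Plin4* and 4.40% to 11.3% of *Plin5*. The regions over *Plin4* were present for RNAP2 under each threshold, and the weak regions at *Plin2* and of BMAL1 in *Plin5* were not. Depth limits every absence here: a gene without a peak may carry signal below the calling threshold.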
